A study of Mus musculus with 288 samples.

Results

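The genes described here were 9 secretory products of goblet and Paneth cells (Agr2, Fcgbp, Tff3, Spink4, Muc2, Clca1, Zg16, Lyz1 and Itln1), out of 46078 mouse genes counted, and they were followed in single enteroendocrine cells. They were chosen by name, with earlier results of these data known. Their values came from 250 of 288 cells, with at least 20000 reads on mouse genes and at most 20% of those on mitochondrial genes. The study asked whether cells that transcribe Gcg, the proglucagon gene, divide into types. Duodenal tissue (the upper 10 cm of small bowel) of 3 male GLU-Venus mice, 20 to 21 weeks of age, was dissociated and sorted into single cells; in this line the proglucagon promoter drives the fluorescent protein Venus. Full-length cDNA was made by Smart-seq2. The labels give no treatment, and all the mice carried the same transgene on a C57BL6 background. The labels name the pool of each cell (SLX-11175, SLX-11179 or SLX-9703, with 96 cells each) and neither its mouse nor its fluorescence, and each pool is treated here as 1 replicate. By the study's own account the deeply sequenced mouse gave Venus-positive cells alone, which by depth is pool SLX-9703, so that the non-fluorescent control cells lie in the shallow pools, where they could not be set apart. Values given per pool follow that order.

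Goblet and Paneth cells arise from the same secretory progenitors as enteroendocrine cells. Goblet cells build the mucus layer from the gel-forming mucin Muc2, helped by Agr2, a disulfide isomerase of the endoplasmic reticulum that is needed for mucin folding, and release Fcgbp, Clca1, Zg16 and the trefoil peptide Tff3 with it. Paneth cells sit at the crypt base and secrete antimicrobial proteins such as the lysozyme Lyz1.

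Cells were placed in classes by a single gene each. Pzp cells had at least 100 counts per 1000000 reads on mouse genes (CPM) of Pzp, an alpha-2-macroglobulin family member, Gcg cells had at least 10000 CPM of Gcg, and Gip cells had at least 10000 CPM of Gip, the hormone of K-cells. This gave 64 Pzp cells (14, 22 and 28 by pool), 53 Gcg cells (16, 18 and 19) and 25 Gip cells (10, 5 and 10). A further 103 cells met no threshold (32, 41 and 30) and 5 met more than 1 and were left out of the sums. The Pzp cell nearest above its threshold had 104 CPM and the nearest below had 92.2 CPM. The Pzp exons overlap those of Gm10069 on the other strand, and the libraries carry no strand, so that reads of these genes could not be separated. Passing cells held 20121 to 779919 reads in the shallow pools SLX-11175 and SLX-11179 and 319966 to 4368674 in the deep pool SLX-9703. All 10 of the endocrine genes listed as markers (among them Chga, Chgb, Scg2 and Neurod1) had reads in each class, with summed levels per pool of 9366 to 20021 CPM in Pzp cells, 21808 to 43442 CPM in Gcg cells and 2859 to 10067 CPM in Gip cells.

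The 9 genes fell into 3 groups by the share of cells with a read. In Pzp cells, Agr2 and Tff3 were found in 64 of 64 cells and Fcgbp in 56 of 64. Muc2, Clca1 and Zg16 were at or near 0 in all 3 classes. Spink4, Lyz1 and Itln1 had reads in a minority of cells. Levels of different genes are compared per kilobase of exon: in Pzp cells Tff3 stood at 9886 CPM per kb, Agr2 at 3552, Spink4 at 25, Fcgbp at 20.8, Lyz1 at 14.1 and Muc2 at 0.0847 CPM per kb. The Spink4 and Lyz1 values rested on few cells. Without the highest cell of each pool the mean fell from 11.9 to 4.38 CPM for Spink4, from 17.8 to 2.06 CPM for Lyz1 and from 219 to 167 CPM for Fcgbp. No order among these 3 is drawn.

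The promoters of Agr2, Fcgbp and Muc2 are shown because in Pzp cells these genes ranged from found in 64 of 64 cells (Agr2) to 3 of 64 (Muc2). They are the 250 bases before the RefSeq start in build GRCm38.p6, 5′ to 3′ on the strand of the gene, at chr12:35992675-35992924, chr7:28070986-28071235 and chr7:141690090-141690339, all on the plus strand. Capitals mark matches, on either strand, to the E-box CAGCTG, the forkhead motif TGTTTAC, the motif AGATAA that zinc-finger factors of the gut bind, and the core promoter element TATAAA.
Agr2: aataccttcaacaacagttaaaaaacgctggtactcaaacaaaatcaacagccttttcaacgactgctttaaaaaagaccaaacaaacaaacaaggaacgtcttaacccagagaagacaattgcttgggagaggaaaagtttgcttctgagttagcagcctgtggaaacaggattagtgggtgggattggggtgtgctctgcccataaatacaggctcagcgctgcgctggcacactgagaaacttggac
Fcgbp: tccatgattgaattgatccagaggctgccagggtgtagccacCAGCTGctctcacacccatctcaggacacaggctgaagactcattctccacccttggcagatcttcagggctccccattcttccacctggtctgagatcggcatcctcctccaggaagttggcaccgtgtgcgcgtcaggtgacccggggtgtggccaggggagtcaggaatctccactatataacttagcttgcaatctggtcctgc
Muc2: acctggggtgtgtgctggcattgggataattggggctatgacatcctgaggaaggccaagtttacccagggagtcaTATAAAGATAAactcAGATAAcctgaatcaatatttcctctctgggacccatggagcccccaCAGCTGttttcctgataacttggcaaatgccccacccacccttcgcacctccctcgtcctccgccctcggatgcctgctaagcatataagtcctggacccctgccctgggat

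The Fcgbp window held CAGCTG 208 bases before the start, and the Muc2 window held it 112 bases before the start. Muc2 also had AGATAA at 169 and 159 bases and TATAAA at 174 bases, where TATAAA and the first AGATAA share a base. The Agr2 window had none of the 4 motifs, nor had those of Lyz1 and Itln1, and the table used held windows for 5 of the 9 genes. Of 32851 mouse promoters of this length, 13% held CAGCTG, 9.99% AGATAA, 12.4% TATAAA and 3.17% TGTTTAC. A match describes letters in the window and not a bound site.

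Agr2 (ENSMUSG00000020581, chr12:35992907-36004087, mm10) was highest in Pzp cells, intermediate in Gcg cells and close to absent in Gip cells. In Pzp cells it stood at 3795, 4630 and 5330 CPM by pool (4585 ± 768 CPM, SD, n = 3). In Gcg cells it stood at 528, 1308 and 1270 CPM (1035 ± 440 CPM, SD, n = 3), and in Gip cells at 11.9, 1.79 and 6.19 CPM (6.62 ± 5.06 CPM, SD, n = 3). The 3 classes did not overlap: every Pzp sum was above every Gcg sum, and every Gcg sum was above every Gip sum. Gip cells were as empty of Agr2 by cell as by sum: in the deep pool, where each of the 10 Gip cells had a read, the highest of them had 17.1 CPM. In the shallow pools 3 of the 15 Gip cells had a read, 6 reads in all.

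Within Gcg cells, Agr2 was spread over a wide range, with 16 of 53 cells at 1000 CPM or more, 9 without a read and medians by pool of 280, 404 and 310 CPM. A few cells held much of the sum. The single highest Gcg cell gave 43.6% of the Agr2 reads in pool SLX-11179, 31.1% in SLX-11175 and 21.9% in SLX-9703, and the mean level fell from 1035 to 766 CPM with the highest cell of each pool left out. In Pzp cells, 58 of 64 were at 1000 CPM or more, the medians by pool were 2999, 4492 and 4454 CPM, and the mean was 4281 CPM with the highest cells left out.

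Tff3 (ENSMUSG00000024029, chr17:31125306-31129646), a trefoil factor that protects and restores the mucosal surface, followed the same order with a higher floor in Gip cells. It stood at 4416, 4702 and 5503 CPM in Pzp cells (4874 ± 563 CPM, SD, n = 3), and at 378, 598 and 719 CPM in Gcg cells (565 ± 173 CPM, SD, n = 3). In Gip cells it stood at 9.51, 193 and 134 CPM (112 ± 93.9 CPM, SD, n = 3). Again no sum of one class overlapped those of another. Unlike Agr2, Tff3 was found in each of the 15 Gip cells of pools SLX-11179 and SLX-9703, with medians of 252 and 133 CPM, and in 2 of the 10 of pool SLX-11175. After each cell was thinned to 20000 reads, Tff3 was found in 15 of 25 Gip cells (60%, exact Clopper-Pearson 95% interval 38.7 to 78.9%) and Agr2 in 3 of 25 (12%, interval 2.55 to 31.2%), where the intervals cover counting error only.

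Fcgbp (ENSMUSG00000047730, chr7:28071236-28120862), a large mucus protein that binds mucins, had the widest ratio of the 3 between Pzp and Gcg cells. In Pzp cells it stood at 201, 176 and 279 CPM (219 ± 53.5 CPM, SD, n = 3). In Gcg cells it stood at 24.1, 3.13 and 14.4 CPM (13.9 ± 10.5 CPM, SD, n = 3) and in Gip cells at 2.38, 14.3 and 0.728 CPM (5.81 ± 7.42 CPM, SD, n = 3). The Pzp sums lay above all others, while the Gcg and Gip sums overlapped. At 20000 reads per cell, Fcgbp was found in 47 of 64 Pzp cells (73.4%, exact 95% interval 60.9 to 83.7%), 4 of 53 Gcg cells (7.55%, interval 2.09 to 18.2%) and 2 of 25 Gip cells (8%, interval 0.984 to 26%). These intervals cover counting error only and leave out the spread between pools. By pool, Fcgbp was found in 8 of 14, 14 of 22 and 25 of 28 thinned Pzp cells. The value of 14.3 CPM in Gip cells of pool SLX-11179 came from 8 reads of 1 cell, and in pool SLX-11175 1 Pzp cell gave 51.5% of the Fcgbp reads. In Gcg cells the top cell gave 60% of the Fcgbp reads in SLX-11179 and in SLX-9703, and the mean fell from 13.9 to 8.14 CPM with the highest cell of each pool left out. In Gip cells it fell from 5.81 to 0.102 CPM. With these cells left out, the sums were 16.8, 1.34 and 6.31 CPM in Gcg cells and 0, 0 and 0.305 CPM in Gip cells. A limit of 3 reads stood at 7.14 and 5.37 CPM in the full Gip sums of pools SLX-11175 and SLX-11179. No order of Gcg and Gip cells is therefore drawn for Fcgbp.

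**Figure D1:**
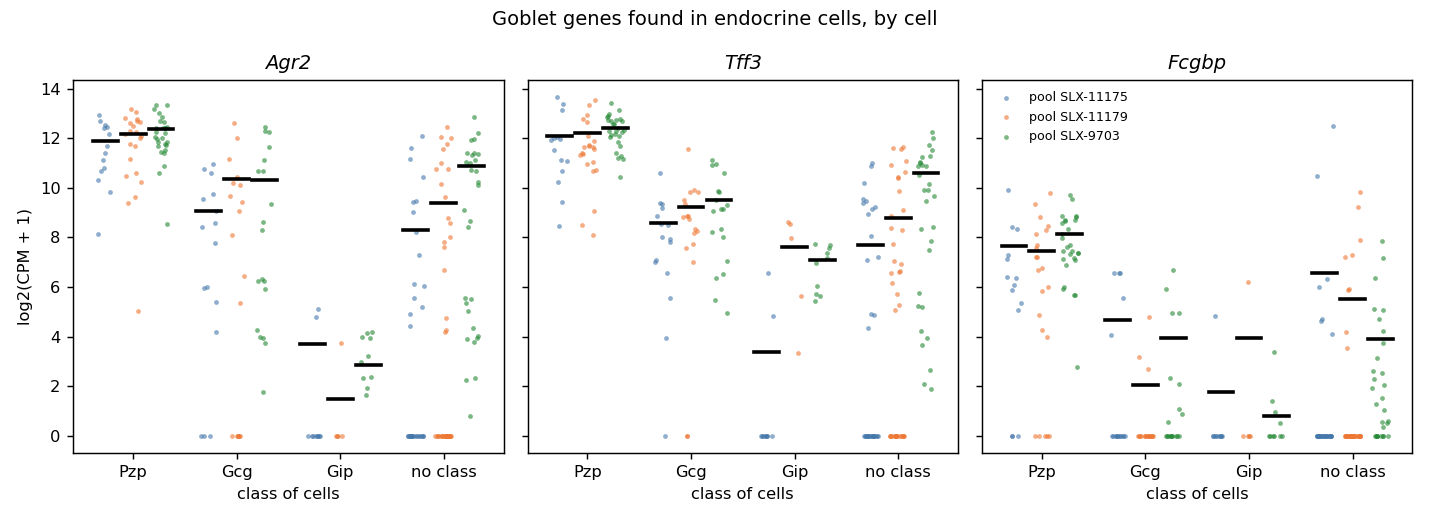
Agr2, Tff3 and Fcgbp in single cells as log2(CPM + 1), by class and pool. Points are cells, coloured by pool, and black bars are the level of the summed counts of a pool (counts of all its cells over all their reads). The bars of Pzp cells lie above those of Gcg and Gip cells in each pool for all 3 genes, and Agr2 sums of Gip cells stay between 1.79 and 11.9 CPM.

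The test of Pzp against Gcg cells asked whether these genes differ between these 2 classes. Counts were summed per pool and class and compared in edgeR by a quasi-likelihood test that blocked on the pool, with Benjamini-Hochberg adjustment over all genes tested. Of the 9 members, 4 (Agr2, Tff3, Fcgbp and Lyz1) passed the filter on low counts here and in the other 2 comparisons among the classes. None of the 4 passed the threshold of 0.05, at which 26 of 9656 genes (0.269%) were called. Tff3 had a log2 fold change of 3.04 ± 0.61 (SE) with an adjusted p of 0.0587 by edgeR's quasi-likelihood test, Fcgbp 3.88 ± 0.82 with 0.0763 and Agr2 1.95 ± 0.52 with 0.224. All 3 were higher in Pzp cells in 3 of 3 pools without overlap, as were 8.25% of all genes tested. Before adjustment the p of Tff3 was 1.64e-04, that of Fcgbp 2.62e-04 and that of Agr2 0.00186 in the same edgeR fit. Lyz1 did not separate these classes, with a log2 fold change of -0.59 ± 1.03, an adjusted p of 0.999 by edgeR and a higher level in Pzp cells in 1 of 3 pools.

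For Agr2, Tff3 and Fcgbp the call for this pair depended on the method while the direction did not. Over 17 alternative settings the log2 fold change of Tff3 ranged from 2.66 to 3.72 and passed in 10, that of Fcgbp ranged from 3.20 to 4.84 and passed in 5, and that of Agr2 ranged from 1.62 to 4.66 and passed in 4. Without pool SLX-11175, Tff3 passed (adjusted p = 0.0320 by edgeR, in a range of 8.57e-12 to 0.327). DESeq2 called all 3, with adjusted p of 6.4e-05 for Tff3, 0.00152 for Fcgbp and 0.0231 for Agr2.

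Pzp against Gip cells gave calls for most of the members tested. Agr2 was higher in Pzp cells by a log2 fold change of 8.74 ± 0.73 (edgeR's quasi-likelihood test, adjusted p = 1.06e-05), Tff3 by 5.08 ± 0.69 (adjusted p = 6.1e-04) and Fcgbp by 5.13 ± 0.99 (adjusted p = 0.00924). These were 3 of the 4 members tested, beside 1.76% of all 9656 genes that were called higher, and each was higher in 3 of 3 pools. As the members were chosen with earlier results of these data known, their share is a description. The fourth, Lyz1, had a log2 fold change of 3.37 ± 1.23 and an adjusted p of 0.193 by edgeR. DESeq2 called it (adjusted p = 0.0413, in a range up to 0.787), while its log2 fold change was 1.08 with cells over several thresholds counted in each class and 0.42 with limma. All 4 were higher without overlap between the classes, as were 26.8% of the genes tested. For Lyz1 the Gip sums held 1, 0 and 8 reads. The limit of 3 reads in the Gip sum of pool SLX-11175 was 7.14 CPM, above the lowest Pzp sum of Lyz1 (6.17 CPM), so its lack of overlap is not resolved. Agr2 and Tff3 passed in all 16 alternative settings for this pair. Fcgbp no longer passed at a minimum of 50000 reads per cell (adjusted p = 0.0713), without pool SLX-11175 (0.104) and without pool SLX-9703 (0.0643), within a range of 1.1e-07 to 0.104 over its 16 edgeR, limma and DESeq2 alternatives. Its log2 fold change over them ranged from 3.63, without pool SLX-9703, to 7.10, without pool SLX-11179, and was 5.05 without pool SLX-11175.

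Gip against Gcg cells differed in Agr2, which was lower in Gip cells by a log2 fold change of -6.79 ± 0.69 (edgeR's quasi-likelihood test, adjusted p = 8.3e-05). It was the 1 member of 4 that passed, beside 0.725% of genes called lower. Tff3 had a log2 fold change of -2.04 ± 0.60 (adjusted p = 0.138 by edgeR), Lyz1 -3.96 ± 1.27 (0.173) and Fcgbp -1.25 ± 1.01 (0.676). The direction of Fcgbp was not stable: its value was -3.53 without pool SLX-11179, 0.20 without pool SLX-9703 and 0.064 with thinning. Tff3 passed in 3 of 16 alternatives (DESeq2, adjusted p = 0.0226, no filter on low counts, 1.25e-05 by edgeR, and limma, 0.0171, in a range up to 0.287). Lyz1 passed with DESeq2 (adjusted p = 0.0173, in a range up to 0.796), and its log2 fold change was -1.51 with cells over several thresholds counted in each class and -0.93 with limma. Agr2, Tff3 and Lyz1 were lower in Gip cells without overlap, as were 20.7% of genes tested, and the Gip sums of Lyz1 held 1, 0 and 8 reads. The Agr2 call was lost with class thresholds of 200 CPM for Pzp and 20000 CPM for Gcg and Gip (log2 fold change -4.91, adjusted p = 0.0534 by edgeR) and with cells over several thresholds counted in each class (-5.39, adjusted p = 0.0601), in a range of 5.45e-40 to 0.0601 over 16 alternatives. The 3 comparisons share classes and are not independent of each other.

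**Figure D2:**
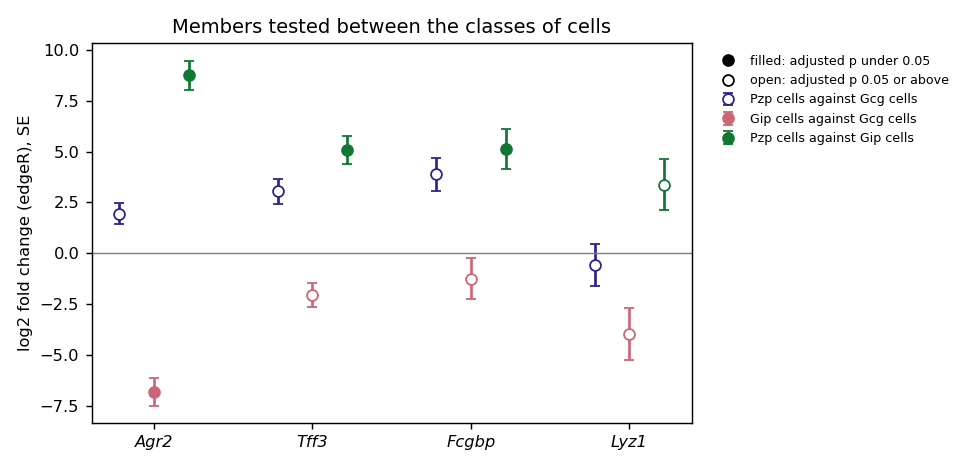
Log2 fold changes from the edgeR fit for the 4 members that passed the low-count filter, in each comparison of 2 classes. Points are estimates and bars are standard errors, filled points have an adjusted p under 0.05, and Agr2 spans the widest range, from -6.79 (Gip against Gcg) to 8.74 (Pzp against Gip).

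Markers of other cell types moved with some of these results. The summed level of 9 enterocyte genes (among them Alpi, Fabp2 and Sis), each with reads in each class, was 2736 to 3814 CPM per pool in Pzp cells, 2079 to 3408 CPM in Gcg cells and 771 to 1658 CPM in Gip cells, and its part in the lower values of Gip cells was not tested. Fabp2 (1050 CPM in Pzp and 105 CPM in Gip cells) and Sis (1665 and 299 CPM) carried the lower sum, while Rbp2 (61.3 and 416 CPM), Apoa1 (40.8 and 66.2 CPM) and Fabp1 (55.8 and 87.8 CPM) were not lower in Gip cells. The 5 stem cell genes were at 22.4 to 339 CPM in Pzp cells, 1.79 to 14.3 CPM in Gcg cells and 26.9 to 53.4 CPM in Gip cells, and Olfm4 gave 269 of the 339 CPM. The 7 genes of Brunner and gastric mucous glands, which also make trefoil peptides, summed to at most 8.24 CPM in any pool and class, with Tff1 and Aqp5 at 0. Of the goblet cell transcription factors, Foxa3 was at 60.2 ± 27.5 CPM in Pzp cells, 32.7 ± 25.4 CPM in Gcg cells and 27.3 ± 5.47 CPM in Gip cells (SD, n = 3). Spdef and Atoh1, which specify goblet and secretory fate, were at 0.198 and 0.00566 CPM on average in Pzp cells and at 0.209 and 2.31 CPM in Gcg cells, where Atoh1 reached 6.88 CPM in 1 pool, and both were at 0 in Gip cells.

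Muc2 (ENSMUSG00000025515, chr7:141690340-141754693), Clca1 (ENSMUSG00000028255, chr3:145003817-145032776), a mucus-processing metalloprotease, and Zg16 (ENSMUSG00000049350, chr7:127050156-127087328), a lectin-like protein that binds bacteria, were not part of the pattern of Agr2 and Tff3. Over 64 Pzp cells and 61395959 reads, Muc2 had 3 reads in 3 cells, Zg16 had 4 reads in 2 cells and Clca1 had none. Over 53 Gcg cells and 52263900 reads, Muc2 had 1 read, Zg16 had 7 reads in 1 cell and Clca1 had none, and over 25 Gip cells and 14710897 reads none of the 3 had a read. Taken as 3 counts over the number of cells, a count of 0 allows a share of cells with a read of up to 4.69% in Pzp cells, 5.66% in Gcg cells and 12% in Gip cells. None of the 3 genes passed the low-count filter in any fit. Zg16 overlaps the genes Gm44939 and Gm22747 on the other strand outside exons.

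Whatever their Agr2, 5 of 64 Pzp cells and 2 of 53 Gcg cells had a read of Muc2, Clca1 or Zg16. Most Pzp and Gcg cells rich in Agr2 likewise had no read of these 3 genes. Of the 58 Pzp cells with 1000 CPM or more of Agr2, 53 had no read of any of the 3, and the 5 Pzp cells with such a read were all among these 58. In cells of no class, 8 of the 28 cells with that much Agr2 had such a read, out of 13 with one. Of the Pzp cells, 55 of 64 had 1000 CPM or more of both Agr2 and Tff3. None of the Pzp, Gcg or Gip cells had reads of more than 1 of the 3 genes Muc2, Clca1 and Zg16, and all 16 Gcg cells rich in Agr2 lacked all 3.

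One cell held Muc2, Clca1, Zg16, Fcgbp and Spink4 together. It belonged to pool SLX-11175 and to no class, held 44004 reads, and was singled out after its values were seen. It had 7090 CPM of Muc2 (312 reads, 99.7% of the Muc2 reads of the cells of no class in its pool), 5818 CPM of Zg16, 5681 CPM of Fcgbp, 2159 CPM of Clca1 and 591 CPM of Spink4, each the highest value among the 250 passing cells. Tff3 was at 1159 CPM, below the mean of Pzp cells, and Agr2 was at 45.5 CPM from 2 reads. Gcg, Gip, Pzp, Chga, Chgb, Lyz1 and Itln1 had no read in it, while Cck had 8 reads (182 CPM). Of the goblet and secretory transcription factors, Atoh1 had 2 reads, and Spdef, Creb3l4 and Foxa3 had none. In all, 2 of the 103 cells of no class had reads of Muc2, Clca1 and Zg16 together, and the other one, from the deep pool, had 1 read of Clca1. With the highest cell of each pool left out, the mean level of Muc2 in cells of no class fell from 32.2 to 0.221 CPM and that of Clca1 from 9.66 to 0 CPM.

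**Figure D3:**
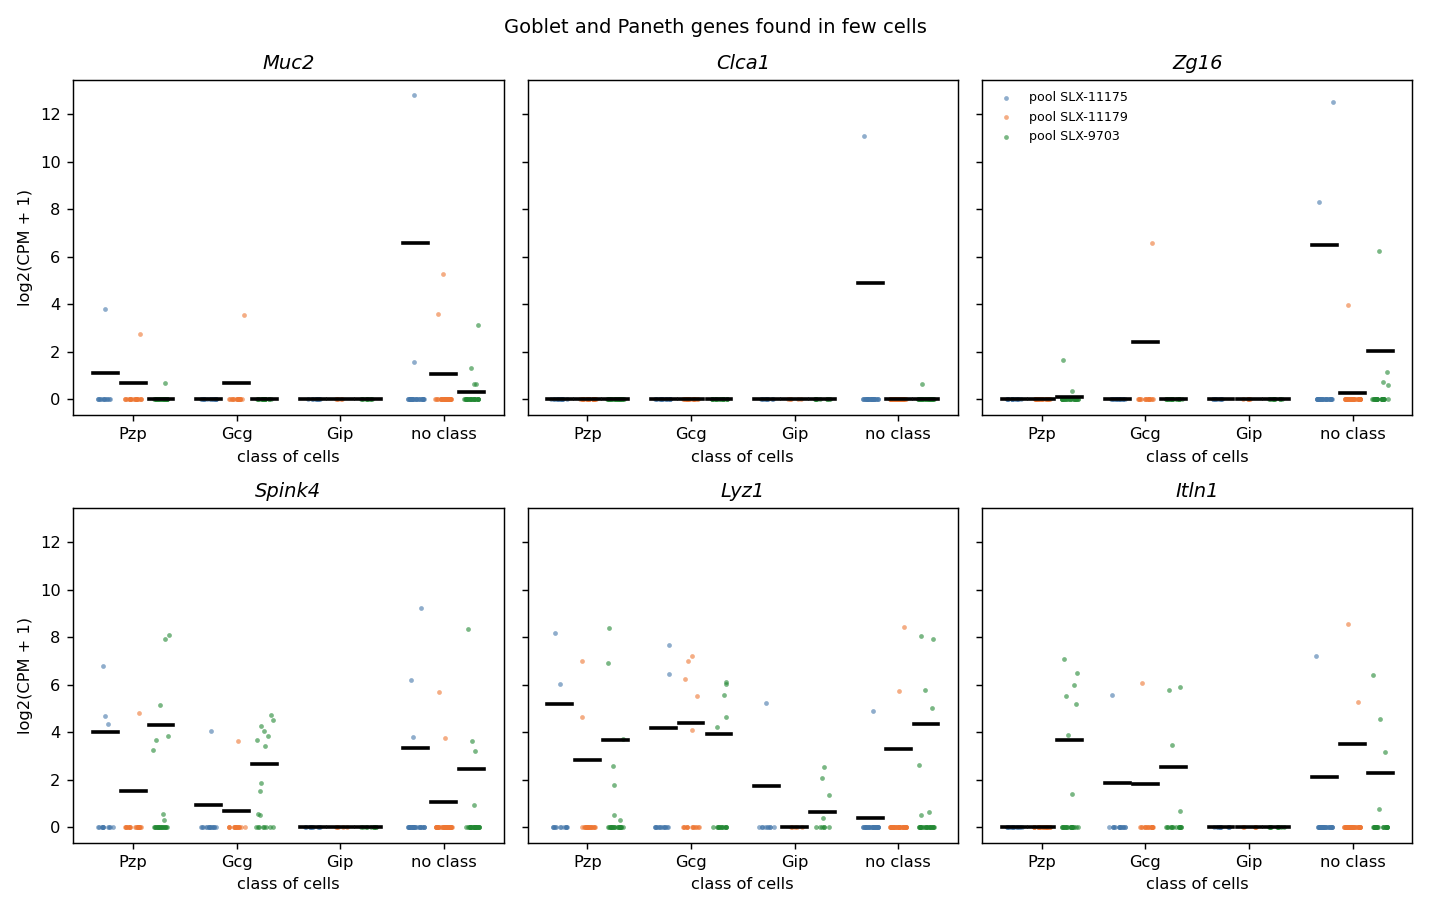
Muc2, Clca1, Zg16, Spink4, Lyz1 and Itln1 in single cells as log2(CPM + 1), by class and pool, with black bars for the level of the summed counts. Most points lie at 0, and the cell of pool SLX-11175 with 7090 CPM of Muc2, 2159 CPM of Clca1 and 5818 CPM of Zg16 stands apart in the 3 upper panels.

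Spink4 (ENSMUSG00000028415, chr4:40920052-40931395), a Kazal-type protease inhibitor of goblet cells, was present at a low level. It stood at 15.3, 1.85 and 18.7 CPM in Pzp cells, at 0.893, 0.626 and 5.43 CPM in Gcg cells and at 0 in all 3 pools of Gip cells. Pzp and Gcg sums overlapped, and 12 of 64 Pzp cells and 13 of 53 Gcg cells had a read. In Pzp cells the top cell of each pool gave 76.9, 100 and 52.5% of the Spink4 reads, so that single cells set the sums, and the mean without them was 4.38 CPM.

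Lyz1 (ENSMUSG00000069515, chr10:117287797-117292868) had overlapping sums in Pzp and Gcg cells, which rested on few cells. It stood at 35.3, 6.17 and 11.8 CPM in Pzp cells (17.8 ± 15.4 CPM, SD, n = 3), at 17, 20.02 and 14.1 CPM in Gcg cells (17 ± 2.95 CPM, SD, n = 3) and at 2.38, 0 and 0.583 CPM in Gip cells (0.987 ± 1.24 CPM, SD, n = 3). Pzp and Gcg sums overlapped and Gip sums lay below both. The Gip sums held 1, 0 and 8 reads, and the limit of 3 reads in pool SLX-11175 was 7.14 CPM, above the Pzp sum of 6.17 CPM. Reads were in 11 of 64 Pzp, 12 of 53 Gcg and 5 of 25 Gip cells, and the top cell of each pool gave 93.3, 90 and 76.5% of the Lyz1 reads of Pzp cells. Without the top cells the mean was 2.06 CPM in Pzp cells and 9.44 CPM in Gcg cells. Lyz1 shares 195 of its 1214 windows of 50 bases (16.1%) with its paralog Lyz2, so that its counts are uncertain to that extent, and Lyz2 itself was at 0.403 CPM in Pzp cells and 4.31 CPM in Gcg cells.

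Itln1 (ENSMUSG00000038209, chr1:171518122-171535294), the lectin intelectin-1, was at 11.7 CPM in Pzp cells of the deep pool and had no read in those of the shallow pools. In Gcg cells it stood at 2.68, 2.50 and 4.88 CPM, and it had no read in Gip cells. Of the 11 Pzp cells with Lyz1 and the 7 with Itln1, 2 had both, and of the 12 Gcg cells with Lyz1 and the 6 with Itln1, none had both. Of the 7 further Paneth markers (Mmp7, Ang4, Mptx2 and 4 defensins), 6 had no read in Pzp cells, and the list summed to 0 to 0.933 CPM in Pzp, 0 to 2.68 CPM in Gcg and 0 to 16.1 CPM in Gip cells. No Pzp or Gcg cell reached 100 CPM of the Paneth list, the highest being 10.7 and 56.8 CPM, and 2 of the 11 Pzp cells and 3 of the 12 Gcg cells with Lyz1 had any read of it. Mmp7, Mptx2, Defa17 and Defa22 were among the markers at 0 in Pzp and in Gcg cells. Other antimicrobial and secretory genes of the wider Paneth list had reads there. In the deep pool, Reg3b stood at 558 CPM in Gcg and 72.6 CPM in Pzp cells, Reg3g at 175 CPM in Gcg cells and the colipase Clps at 53.2 CPM in Pzp cells.

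The 103 cells of no class were mixed, as they take in sorted endocrine cells under the thresholds in all 3 pools and could hold non-fluorescent control cells in the shallow pools. Agr2 stood at 310, 668 and 1865 CPM in them (947 ± 814 CPM, SD, n = 3), Tff3 at 203, 439 and 1531 CPM (724 ± 708 CPM) and Fcgbp at 93.8, 44.1 and 14 CPM (50.7 ± 40.3 CPM). For Agr2 and Tff3 the deep pool was highest and for Fcgbp it was lowest. Without the highest cell of each pool the mean of Fcgbp fell to 18.8 CPM. The summed level of 8 immune genes (among them Ptprc, Cd3e, Igha and Igkc) was 350823 and 229500 CPM in the shallow pools and 228 CPM in the deep pool, against at most 238 CPM in any pool of the 3 classes, and its part in the lower shallow-pool levels was not tested. The 9 enterocyte genes summed to 1519, 1849 and 8819 CPM, above every class sum in the deep pool, where Agr2 and Tff3 were also highest, and their part was not tested.

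Against the mean of the log2 levels of the 3 classes, Agr2 was called higher in cells of no class (log2 fold change 1.78 ± 0.36, edgeR's quasi-likelihood test, adjusted p = 0.0187), 1 of 6 members tested, beside 1.29% of 11371 genes called higher. That mean includes the near-empty Gip cells on the log scale. On the linear scale, the level of Agr2 in cells of no class was below the mean of the 3 classes in 3 of 3 pools, and so was that of Tff3 (log2 fold change 0.22 ± 0.42, adjusted p = 0.951 by edgeR). The call was lost in 5 of 17 alternative settings, among them the fit without pool SLX-9703 (adjusted p = 0.375 by edgeR, in a range of 6.78e-11 to 0.551), and with limma on log2(CPM + 1) averaged over cells, the value was -1.38, in a fit where 9 of 112 called genes were higher against 147 of 153 here. Fcgbp (1.60 ± 0.71, adjusted p = 0.487 by edgeR) and Lyz1 (0.88 ± 0.91, 0.891) did not pass. The Fcgbp value was 0.58 without the cell rich in Muc2, an alternative added after seeing the data, 0.55 without pool SLX-11175 and 0.11 at a minimum of 50000 reads per cell. The Lyz1 value turned to -0.19 without the 1 cell of no class that had 100 CPM or more of the Paneth markers, also added after seeing the data. It was -0.13 without pool SLX-9703 and 1.76 without pool SLX-11175. Spink4 (adjusted p = 0.249 by edgeR) and Itln1 (0.222) did not pass either, and since Gip cells had no read of them, their fold changes in the edgeR fit depend on the prior count and are not given.

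A split of the cells of no class by Cck, the cholecystokinin gene of I-cells, was made after seeing the data. In cells of no class with 10000 CPM or more of Cck (9, 13 and 15 cells), Agr2 stood at 1724, 2394 and 3020 CPM, and in the others (23, 28 and 15 cells) at 14.4, 35.8 and 87.3 CPM. Tff3 stood at 974, 1480 and 2437 CPM in the former and 42, 57 and 136 CPM in the latter. Fcgbp stood at 24.7, 15.7 and 14.9 CPM in cells high in Cck and at 108, 54.6 and 12.5 CPM in the others, where the cell rich in Muc2 alone gave 81.2% of the Fcgbp reads of the cells of no class in pool SLX-11175, so no direction is drawn for it. As the split was chosen on these cells, the values are a description.

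**Figure D4:**
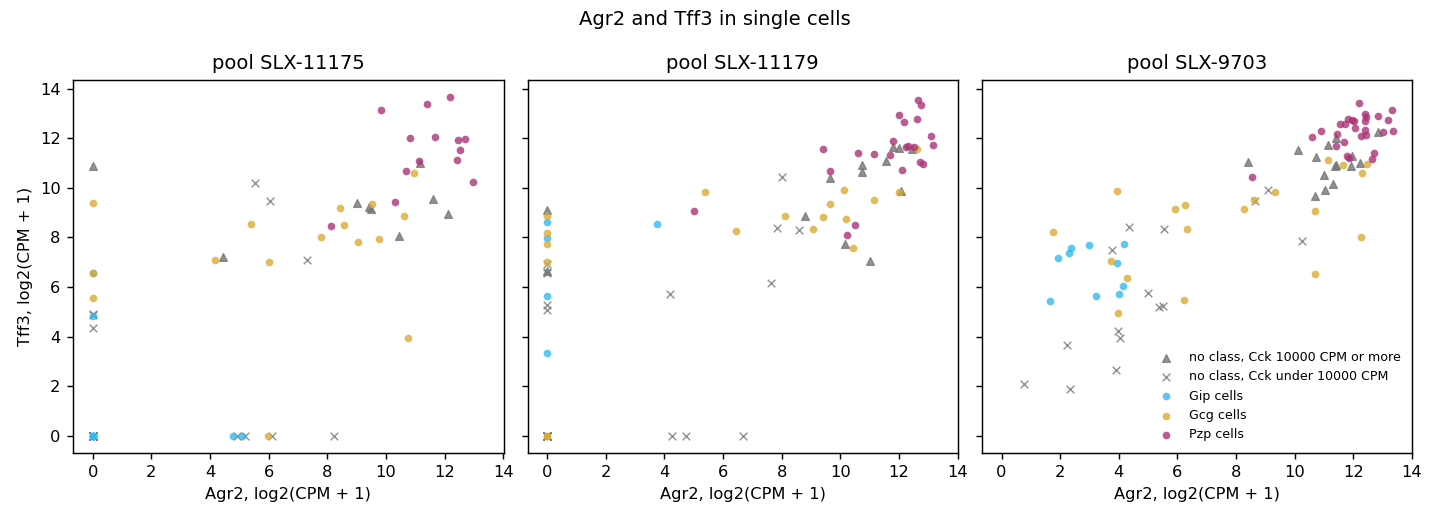
Tff3 against Agr2 in single cells, both as log2(CPM + 1), 1 panel per pool, coloured by class, with cells of no class split by Cck at 10000 CPM. Pzp cells and most cells of no class high in Cck lie at the upper right, Gcg cells run from low to high Agr2, and Gip cells of the deep pool lie at 17.1 CPM of Agr2 or less with 42.7 to 209 CPM of Tff3.

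Agr2 and Tff3 were correlated over all cells and less so within Pzp, Gcg or Gip cells. Spearman's correlation of the CPM of both was 0.77, 0.86 and 0.85 over all passing cells by pool (75, 87 and 88 cells, which share plates and differ in depth). Within Pzp cells it was 0.16, 0.56 and 0.34 (14, 22 and 28 cells) and within Gcg cells 0.29, 0.65 and 0.54 (16, 18 and 19 cells). Within Gip cells it was -0.25, 0.35 and 0.19 (10, 5 and 10 cells). Within cells of no class it was 0.63, 0.78 and 0.86 (32, 41 and 30 cells), near the values over all cells. Within Gcg cells, Agr2 ran against Gcg itself, with -0.25, -0.75 and -0.30, and Tff3 did likewise with -0.51, -0.42 and -0.50. Gcg cells were chosen on Gcg, and in cells of no class the sign was the opposite, with 0.69, 0.65 and 0.59 for Agr2 and 0.40, 0.66 and 0.44 for Tff3. Both Gcg and the other genes are shares of the same reads in these values.

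Of 13235 genes found in at least 20% of the 88 cells of the deep pool, those most like Agr2 across these cells were Tff3 (Spearman's correlation 0.85), Agr3 (0.80) and Fxyd3 (0.80). Those most like Tff3 after Agr2 were Lgals2 (0.83) and Tm4sf4 (0.82), and all of these were at 0.61 or more in both shallow pools. Those most like Fcgbp were Onecut3 (0.73), Cyp2j5 (0.71) and Kcnc1 (0.71), with 0.28 to 0.67 in the shallow pools. For Spink4 the nearest were Gm14200 (0.56), Osbpl7 (0.45) and Ppp1r16a (0.45), and for Lyz1 they were BC024978 (0.40), Wdr7 (0.40) and Prmt2 (0.38). The highest value of these genes in a shallow pool was 0.31, and Gm14200 had none there. Agr3, the neighbour and paralog of Agr2, stood at 416 ± 27.5 CPM in Pzp cells, 90.4 ± 5.20 CPM in Gcg cells and 0.0728 CPM (reads in the deep pool alone) in Gip cells, and Cyp2j5, a cytochrome P450, stood at 440 ± 222, 6.50 ± 5.59 and 0.888 ± 0.895 CPM (SD, n = 3).

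A wider list of 47 goblet and 30 Paneth genes was read the same way, with 23 and 6 of them passing the low-count filter for the comparisons among classes. For Pzp against Gcg cells none passed, and the median log2 fold change was 0.08 for the goblet genes and 0.38 for the Paneth genes, beside -0.01 over all genes tested. For Pzp against Gip cells, 5 goblet genes were higher, beside 1.76% of all genes, and none was lower, beside 1.1% of all genes. Agr3 and Klf4, a factor of goblet cell maturation that stood at 39.6 ± 29.9 CPM in Pzp cells and 0.0485 CPM in Gip cells, had adjusted p of 4.02e-06 and 0.00785 by edgeR. Fxyd3, a regulator of ion pumps, stood at 258 ± 41.6 CPM in Pzp cells and 25.6 ± 21.5 CPM in Gip cells (adjusted p = 0.0334 by edgeR), the transporter Slc12a8 at 76.7 ± 30.2 and 7.75 ± 4.18 CPM (0.0320), and the glycosyltransferase Gcnt3 at 123 ± 34.8 and 11.5 ± 11 CPM (0.0487). The goblet median there was 1.12 and the Paneth median 0.23, beside 0.24 over all genes. For Gip against Gcg cells, Klf4 and Agr3 were lower in Gip cells (beside 0.725% of all genes called lower) and the Paneth-list lipase Pnliprp2 was higher (beside 0.394% called higher). The medians were -1.58 for goblet and -0.44 for Paneth genes beside -0.24 over all genes. Pnliprp2 had no read in Gcg cells and stood at 47.6, 0 and 50.6 CPM in Gip cells, so that pool SLX-11179 did not show the difference.

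Against the 3 classes, Guca2b, the precursor of uroguanylin (9.75, 7.54 and 91.1 CPM there, adjusted p = 0.0357 by edgeR), and Agr3 (adjusted p = 0.00530) were called higher in cells of no class, beside the 1.29% of all genes, among 24 goblet genes tested with a median of 0.23, and none of 7 Paneth genes passed, with a median of 1.04 beside 0.16 over all genes. Guca2b, like the enterocyte sum of these cells, was highest in the deep pool, and the part of the enterocyte genes in its call was not tested. Agr3 stood at 24.7, 51.2 and 131 CPM there (68.9 ± 55.2 CPM, SD, n = 3), a mean below those of Pzp and of Gcg cells, and was called higher against a log-scale mean that includes the near-empty Gip cells. The 5 list genes with the highest mean level over the 9 sums passed in no comparison: Hepacam2, at 1218 ± 548 CPM in Pzp cells, 921 ± 306 CPM in Gcg cells and 330 ± 126 CPM in Gip cells, the membrane mucins Muc13 and Muc4, the secretory factor Xbp1 and the immunoglobulin receptor Pigr. The membrane mucin Muc13 stood at 645 ± 321 CPM in Pzp cells, 486 ± 92.8 CPM in Gcg cells and 246 ± 63.9 CPM in Gip cells (SD, n = 3), with adjusted p of 0.572 or more in all 4 comparisons by edgeR. Retnlb and the trefoil factor Tff1 had no read in any class, nor in cells of no class.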

How the data were processed

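Single-cell libraries (Smart-seq2, no molecular identifiers, no strand) came from 288 sorted cells in 3 pools. The authors deposited 1 table of raw counts per gene and cell, without normalization. Per the labels and the submitters' processing notes, reads were aligned with GSNAP to mm10 and counted with HTSeq (version 0.5.3p3), and the annotation release is not given in the sources used here. Left out were 5 lines that name no gene (77.6% of counts, the largest being reads not aligned with 66.5%), 92 spike-ins and 4 columns that belong to none of the labelled cells. GENCODE M21 gave symbols for 45143 of 46078 identifiers.

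CPM is reads over all mouse gene reads of a cell, or of a sum. For each pool, the cells of a class (3 or more) were added up, so that deeper cells weigh more. The sums were normalized by TMM, filtered by filterByExpr and compared with edgeR 4.0.16 in R 4.3.3 (quasi-likelihood test, two-sided, Benjamini-Hochberg, false discovery rate 0.05), with 9 sums for the comparisons among classes and 12 for cells of no class. Standard errors are the log2 fold change over the square root of F. Code was tested on simulated data for Pzp against Gcg cells. Of genes changed by a log2 fold change of 2 in either direction, 12.1% were recovered, and of those changed by 4, 64.4%. The pool was a block because its cells share a plate and, by the study's methods, a mouse. After class means were taken off, sums of 1 pool had correlations of 0.0329 to 0.412 (9 pairs) and sums of different pools -0.214 to 0.0955 (18 pairs). As the fit blocked on the pool, p-values set a class difference against its variation from pool to pool, and the labels name no mouse. No doublet caller was run: cells were sorted into wells, but the study notes that small groups of cells could not be fully kept out, so a profile may come from more than 1 cell.

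Alternatives were DESeq2 1.42.0, limma 3.58.1 on mean log2(CPM + 1), other scaling, filters, thresholds, thinning to 20000 reads, no block and each pool left out. Members, lists and thresholds were chosen with earlier results of these data known. Named genes are all 9 members, wider-list genes called in any comparison, the 5 highest of that list, and the 3 genes most like each member read in at least 20% of deep-pool cells, and the other genes named (markers of other cell types, transcription factors and list genes without reads) were chosen after their values were seen.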

Additional observations from a re-analysis of the deposited data

Results flagged for a closer look

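Cells outside the comparisons also held reads of the members above the limit of 3 reads, in 11 of 18 values looked at. In the 38 cells that failed a filter, summed, Agr2 stood at 62 CPM, Tff3 at 77.9 CPM, Fcgbp at 3.15 CPM, Lyz1 at 1.41 CPM, Zg16 at 0.911 CPM, Spink4 at 0.662 CPM and Itln1 at 0.497 CPM, and Muc2 and Clca1 had no read. In the 5 cells over more than 1 class threshold, Agr2 stood at 91.5 CPM, Tff3 at 327 CPM, Lyz1 at 68.3 CPM and Spink4 at 2.03 CPM. The single cell over both the Pzp and the Gcg threshold (pool SLX-11175, 41287 reads) had 291 CPM of Pzp, 32722 CPM of Gcg, 6201 CPM of Agr2 and 170 CPM of Tff3. Of the 5 cells, 3 had a read of Agr2, 315 reads in all, and most of these reads came from this cell. All 235 Lyz1 reads of these 5 cells came from 1 cell.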

How the results depend on the processing

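Agr2 and Tff3 for Pzp against Gip cells passed in all 16 alternatives, with log2 fold changes of 7.0 to 10.03 and 4.24 to 6.81. Counts of genes called differed between settings. For Pzp against Gcg cells (26 genes), DESeq2 called 117, no low-count filter 70, thresholds of 200 and 20000 CPM 43, cells over several thresholds in each class 63, thinning 63, limma 95 (73 of them higher, against 11 of 26), and Gcg cells without a Pzp read, added after seeing the data, 14; leaving out a pool gave 9 to 14. For Gip against Gcg cells (108), DESeq2 called 548, no filter 250, at least 50000 reads 60, cells over several thresholds 22 and limma 1274 (83 higher, against 38 of 108), and leaving out a pool gave 39 to 52. For Pzp against Gip cells (276), DESeq2 called 797, no filter 453, 50000 reads 162 and limma 1988 (1857 higher, against 170 of 276), and leaving out a pool gave 100 to 131. For cells of no class (153), DESeq2 called 335, no filter 1123, 50000 reads 256, at most 10% mitochondrial reads 89, thinning 69, and leaving out a pool gave 114 to 239, with 239 without SLX-11179. Of those calls, limma had 9 of 112 higher and DESeq2 258 of 335, against 147 of 153. Limma moved the median log2 fold change of all genes from 0.24 to 0.67 for Pzp against Gip cells, from -0.24 to -0.57 for Gip against Gcg cells and from 0.16 to -0.29 for cells of no class. The cause was not tested.

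Directions that turned were of values that had not passed, except for Agr2 in cells of no class, at -1.38 with limma. There limma also gave Fcgbp -1.04, Tff3 -2.51, Lyz1 -0.33 and Spink4 -0.067, where the edgeR value of Spink4 was positive. Lyz1 there was -0.22 with cells over several thresholds and -0.19 without the 1 cell rich in Paneth markers, an alternative added after seeing the data. It ran from -0.13 (without SLX-9703) to 1.76 over the pools left out, and Tff3 ran from -0.051 (without SLX-9703) to 0.48 over the pools left out. Lyz1 for Pzp against Gcg cells ran from -1.32 to 0.20 over the pools left out, the latter without SLX-11179. Fcgbp for Gip against Gcg cells was 0.064 with thinning and ran from -3.53 to 0.20 over the pools left out, the latter without SLX-9703. Without the replicate block, Agr2 in cells of no class no longer passed (log2 fold change 1.76, adjusted p = 0.0879 by edgeR), and no other member call changed.

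With 3 pools, 5 to 41 cells per sum and shallow pools at median depths of 52571 and 70726 reads per cell, changes of the size of that of Agr2 between Pzp and Gcg cells, and not only small ones of scarce members, can be missed.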
